A study of Homo sapiens with 6 samples.

Results

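To describe Wnt signaling genes in oral cancer cells after silencing of IL-1β, 38 genes of the pathway were followed on 6 microarrays: 8 Wnt ligands, 11 receptors and co-receptors, 8 cytoplasmic components, 5 nuclear factors and 6 inhibitors or genes of receptor turnover. A gene was measured by the probe sets (groups of short probes for 1 transcript) whose platform annotation listed only that gene, and the probe set with the highest mean signal over the 6 arrays stood for it. Of 19775 genes measured in this way, 35 were members. WNT3 and FZD8 had 3 probe sets each, all with a second gene symbol in the annotation, and TCF7 was not listed, so these members were not analysed here. A probe set was tested when at least 3 of the 6 arrays exceeded a signal of 18.6, the median of all values, and 33 members passed. WNT5A and WNT5B did not.

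Wnt ligands are secreted lipid-modified glycoproteins that bind Frizzled receptors together with a co-receptor, LRP5 or LRP6 in the canonical branch. In the absence of ligand, a destruction complex built on AXIN and APC leads GSK3B to phosphorylate β-catenin (CTNNB1), which is then degraded. With ligand bound, Dishevelled proteins inactivate the complex, and β-catenin reaches the nucleus and works with TCF/LEF factors, while ligands such as WNT5A can also act through β-catenin-independent branches. In oral epithelium the pathway is known for its part in keratinocyte proliferation and in tooth and taste papilla formation.

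Cal27 cells, a widely used line grown from a human tongue squamous cell carcinoma, carried either a short hairpin RNA against IL1B (LV-shIL-1β, 3 arrays) or a scrambled hairpin (LV-shNC, 3 arrays). Both hairpins were delivered by lentivirus, and both groups were described under the same selection with puromycin at 2 µg/mL for 2 weeks. Each group thus went through infection and drug selection, and no array of uninfected cells was used here. Whether the selected cells were a pool or clones was not stated. Nothing stated whether arrays of 1 group were made from different cultures, and p-values therefore rest on array-to-array spread that may be only technical. The hairpins are printed here because they are what distinguishes the groups, with the loop of 9 bases in capitals between the 19-base arms, 5′ to 3′, as the labels gave them.
LV-shIL-1β: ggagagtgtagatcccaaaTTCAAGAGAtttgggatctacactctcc
LV-shNC: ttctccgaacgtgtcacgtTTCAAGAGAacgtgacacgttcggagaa

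IL1B, the target of the hairpin, gave signals of 2677, 2611 and 2494 in LV-shNC and of 1569, 1569 and 1596 in LV-shIL-1β. The groups did not overlap, and the log2 fold change was -0.72 ± 0.04 (SE, limma adjusted p = 2.45e-05), so 1 arm of the comparison held less IL1B mRNA but was not without it. The second IL1B probe set gave -0.74 ± 0.04.

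Array medians lay between 18.4 and 18.9. The lowest correlation of 2 arrays within a group, 0.99476, lay just above the highest between groups, 0.99415. The label of the cells was checked against keratinocyte markers. Of 10 listed, 7 had a probe set of their own and all 7 passed the filter. KRT5 and KRT14, keratins of basal keratinocytes, were called lower (log2 fold changes of -0.32 and -0.35). The other 5 were not called, with DSG3 and ITGA6 at -0.10 each, SFN at 0.01, CDH1 at 0.04 and EPCAM at 0.06. The summed signal of the 7 was 22756 to 23898 in LV-shNC and 20781 to 21531 in LV-shIL-1β. Of 7 fibroblast markers 5 passed, with COL3A1 and DCN below the filter. COL1A2 and LUM were listed with lower signals in LV-shIL-1β, but both passed the filter only through the LV-shNC arrays, so their calls carry no weight here. The sum over all 7 was 176 to 195 in LV-shNC and 139 to 154 in LV-shIL-1β. This sum holds COL1A2 (means of 23.2 and 16.1) and LUM (27.5 and 12.4), so its difference carries no weight either. Of 4 measured leukocyte markers, CD14 alone passed and was called higher (list sum 76.9 to 82.9 against 98.6 to 100.4), with PTPRC, CD3E and ITGAM below the filter. Of 4 endothelial markers, 1 passed and the sums overlapped. As a measure of RNA integrity, the log2 ratio of the 3′ to the 5′ control probe set overlapped for ACTB (0.30 to 0.55 against 0.33 to 0.44) but not for GAPDH (-0.06 to 0.01 against 0.02 to 0.05). KRT5, KRT14, CD14 and the GAPDH ratio thus differed between the groups, as some Wnt genes did, and their part in the Wnt results was not tested.

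Of the 33 members tested, 7 were called at a Benjamini-Hochberg adjusted limma p under 0.05. The 2 called higher in LV-shIL-1β were FZD3, a Wnt receptor, and DKK1, a secreted inhibitor. The 5 called lower were WNT4, a ligand, FZD2 and FZD5, both receptors, TCF7L1, a TCF factor of the repressor type, and DKK3, a secreted member of the Dickkopf family. As background, 8.53% of the 12311 tested genes were called with 1 probe set per gene, 4.03% higher and 4.5% lower, and 7.06% of all 27546 tested probe sets. The calls fell in 4 of the 5 role groups, with 3 of 10 receptors, 2 of 6 inhibitors, 1 of 5 ligands and 1 of 4 nuclear factors called, and 0 of the 8 cytoplasmic components. The members did not move one way: 15 had a positive and 18 a negative log2 fold change, and the median was -0.01 beside 0.00360 over all tested genes. The median size of the change, without its sign, was 0.112 in the members and 0.0906 over all tested genes. The 3 arrays of a group lay apart from the 3 of the other in 15 of the 33 members, and in 31.7% of all tested genes. In these bulk samples fewer cells of a type and less RNA per cell cannot be told apart.

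**Figure D1:**
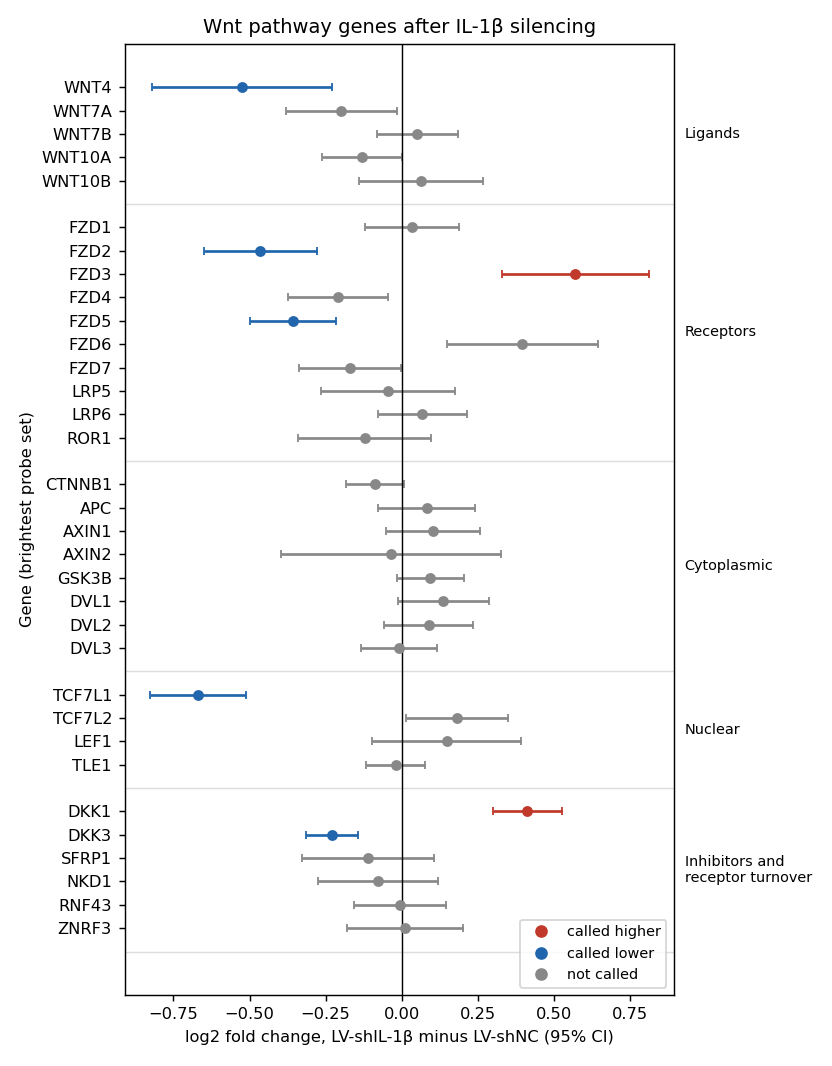
Log2 fold change, LV-shIL-1β minus LV-shNC, of the 33 members that passed the filter, ordered by role, with bars for the 95% confidence interval (n = 3 arrays a group). Red points mark the 2 genes called higher, blue points the 5 called lower and grey points the 26 not called. All 8 cytoplasmic components sit between -0.09 and 0.14, while the receptors run from -0.46 to 0.57.

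Among the ligands, WNT4 was the one called, and it was close to both the filter and the threshold. WNT4, a ligand best known from kidney tubule and female reproductive tract development, gave signals of 31.2, 25.2 and 26.4 in LV-shNC and of 21.9, 15.98 and 19.9 in LV-shIL-1β. Every LV-shIL-1β array lay below every LV-shNC array, and 1 of them lay below the filter signal of 18.6. Group means were 27.6 ± 3.15 and 19.3 ± 3.02 (SD, n = 3). WNT4 fell by 30.5%, or -0.52 ± 0.13 on the log2 scale (SE, limma adjusted p = 0.0435). WNT4 was called in 5 of 14 other settings, and leaving out 1 array kept the call for 1 of the 6 arrays (adjusted p up to 0.149). Its 2 other probe sets were below the filter, with log2 differences of -0.05 and -0.04.

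The other ligands were not called. WNT7A, an epithelial ligand, gave 73.2, 69.4 and 82.7 in LV-shNC against 61.9, 66.6 and 67.5 in LV-shIL-1β. The groups did not overlap, yet the log2 fold change of -0.20 ± 0.08 did not pass (SE, limma adjusted p = 0.182). WNT10A, the ligand whose loss causes tooth and skin appendage defects, had means of 155 and 142 (log2 fold change -0.13 ± 0.06), and its arrays also did not overlap between groups. WNT10B had means of 35.9 and 37.4 and overlapped. WNT7B had means of 120.01 and 124 (0.05 ± 0.06), and its second probe set pointed the other way (-0.06 ± 0.10), both within their errors. WNT5A, the classic ligand of the β-catenin-independent branch, gave 17.0, 24.0 and 20.6 against 16.5, 10.8 and 17.7, a log2 difference of -0.47 with overlapping groups. It did not pass the filter, and in a fit with no filter its adjusted p was 0.24. WNT5B was near the filter signal in both groups (means of 15.0 and 15.9).

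The receptors had the widest range of fold changes of the 5 roles, with Frizzled genes called in both directions. FZD3, a receptor known for axon guidance and planar cell polarity, gave 62.3, 47.0 and 63.0 in LV-shNC and 86.3, 84.3 and 82.8 in LV-shIL-1β. All LV-shIL-1β arrays were higher, and the LV-shNC group was the more variable one (57.4 ± 9.02 against 84.5 ± 1.75, SD, n = 3). FZD3 rose by 48.4%, a log2 fold change of 0.57 ± 0.11 (SE, limma adjusted p = 0.0139). FZD3 had 4 probe sets that passed the filter, all positive, and 3 of them were called, with log2 fold changes of 0.57, 0.48 and 0.46. The remaining one gave 0.42 (adjusted p = 0.0636) and had passed the filter only through the LV-shIL-1β arrays. Without LV-shIL-1β replicate 2 the adjusted p of FZD3 was 0.0719 at a log2 fold change of 0.57.

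FZD2, a receptor that takes part in both branches of the pathway, gave 143, 131 and 142 in LV-shNC and 89.2, 104 and 109 in LV-shIL-1β. The groups were well apart, with means of 139 ± 6.60 and 101 ± 10.3 (SD, n = 3). FZD2 fell by 27.5%, a log2 fold change of -0.46 ± 0.08 (SE, limma adjusted p = 0.0104). Its second probe set gave -0.29 ± 0.08 (adjusted p = 0.0733) and did not overlap between groups either. FZD5, a receptor known from eye and intestinal development, gave 189, 194 and 186 in LV-shNC and 139, 158 and 148 in LV-shIL-1β. No LV-shIL-1β array reached the lowest LV-shNC array. FZD5 fell by 22.0%, a log2 fold change of -0.36 ± 0.06 (SE, limma adjusted p = 0.00975). Its second probe set gave -0.16 ± 0.09 with overlapping groups (adjusted p = 0.32), and the mean over both probe sets, -0.26, was not called (adjusted p = 0.0621).

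FZD6, a receptor that restrains β-catenin signaling and orients hair follicles, had the largest change among the members that were tested and not called. The signals were 364, 481 and 458 in LV-shNC and 652, 538 and 520.04 in LV-shIL-1β. All LV-shIL-1β arrays were higher, but both groups were spread out (434 ± 61.9 and 569.8 ± 71.4, SD, n = 3). The log2 fold change of 0.40 ± 0.11 missed the threshold (SE, limma adjusted p = 0.0634), and FZD6 was not called in any of 15 other settings (adjusted p from 0.062 to 0.302). FZD4, the norrin receptor of retinal vessels, gave 65.5, 59.6 and 62.4 against 54.3, 51.2 and 56.7. These arrays did not overlap, with a log2 fold change of -0.21 ± 0.07 (SE, limma adjusted p = 0.126). FZD7, a receptor known from intestinal stem cells, gave 80.1, 72.8 and 82.7 against 65.8, 71.2 and 72.0. The groups did not overlap here either, at -0.17 ± 0.08 (SE, limma adjusted p = 0.212), and the second FZD7 probe set overlapped (-0.08 ± 0.10).

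The co-receptors showed no call. LRP5 had means of 60.8 and 58.7, a log2 fold change of -0.05 ± 0.10, and LRP6 had means of 99.1 and 104 (0.07 ± 0.07). LRP6 had 3 probe sets past the filter, the other two at 0.004 ± 0.08 and -0.03 ± 0.10. ROR1, a tyrosine kinase receptor for WNT5A, had means of 19.9 and 18.3 (-0.12 ± 0.10), close to the filter signal and without overlap. Its 2 other probe sets, below the filter and not tested, pointed the other way, also without overlap (log2 differences of 0.27 and 0.40). FZD1 had means of 73.1 and 74.8 (0.03 ± 0.07).

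**Figure D2:**
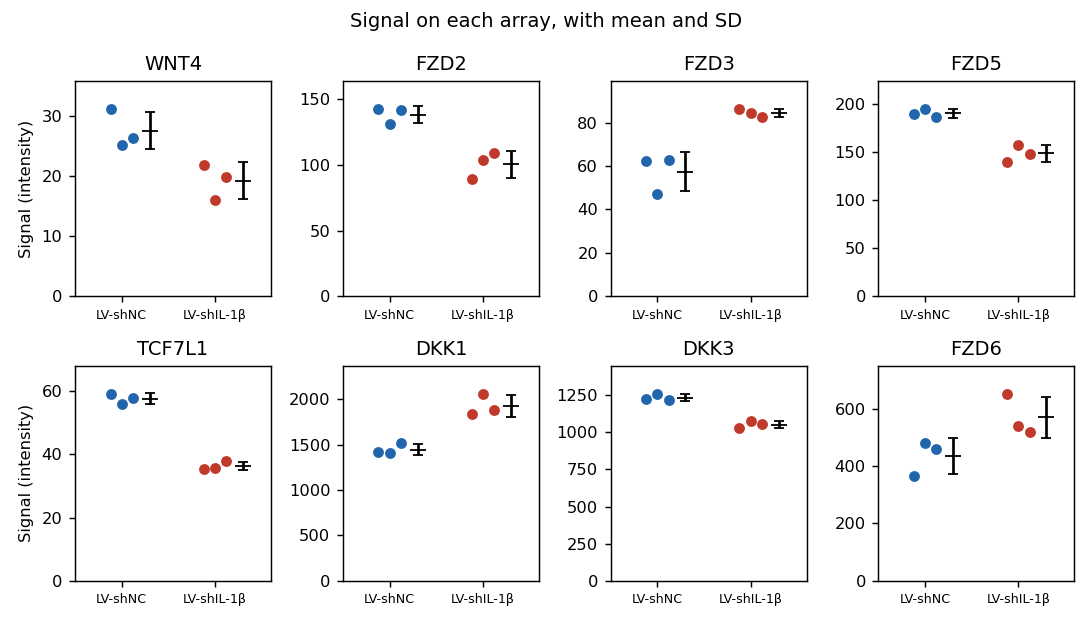
Signal (linear intensity, axes starting at 0) on each of the 6 arrays for the 7 called members and FZD6, with the mean and SD of each group of 3 in black beside the points. In all 8 genes the groups do not overlap; TCF7L1 has tight groups (57.7 ± 1.60 and 36.3 ± 1.30), while FZD6 is spread out in both.

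No cytoplasmic component was called by limma, and 0 of 8 had an unadjusted limma p under 0.05. Over all tested genes, limma called 8.53%, and 3080 of 12311 had an unadjusted p under 0.05. With only 8 components and no test over the list, these counts are not read as a difference from other genes. The methods' t-test after adjustment called none of the 8. CTNNB1, which encodes β-catenin, gave 918, 995 and 952 in LV-shNC and 898, 901 and 894 in LV-shIL-1β. The LV-shIL-1β arrays all lay just below the lowest LV-shNC array, at a log2 fold change of -0.09 ± 0.04 (SE, limma adjusted p = 0.258; 95% interval -0.18 to 0.01). A further CTNNB1 probe set gave -0.02 ± 0.10, and the last was below the filter. AXIN2, a scaffold of the destruction complex and the usual readout of β-catenin activity, gave 18.5, 24.6 and 15.5 against 21.0, 16.7 and 18.7. The signals lay around the filter signal and overlapped (-0.04 ± 0.16, SE, limma adjusted p = 0.924; 95% interval -0.40 to 0.33), so this readout was measured with a wide error. The 3 other AXIN2 probe sets were below the filter.

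The other destruction complex genes moved little. GSK3B, the kinase that marks β-catenin for degradation, had means of 292 and 312 without overlap (log2 fold change 0.09 ± 0.05), and another of its 3 tested probe sets pointed down (-0.08 ± 0.07). APC had means of 72.7 and 76.9, and AXIN1 of 64.4 and 69.1, both with overlapping groups. Of the Dishevelled genes, which relay the signal from Frizzled to the complex, DVL1 had means of 155 and 171 (0.14 ± 0.07), DVL2 of 107 and 114 (0.09 ± 0.07) and DVL3 of 171 and 169.98 (-0.01 ± 0.06). The log2 fold changes of the 8 ran from -0.09 to 0.14.

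In the nucleus, TCF7L1 was the member with the lowest adjusted p. TCF7L1 encodes TCF3, a TCF factor that mostly represses Wnt targets and is present in basal and stem cell layers of stratified epithelium. The signals were 59.2, 56.0 and 57.9 in LV-shNC and 35.4, 35.7 and 37.8 in LV-shIL-1β. The gap between the groups was far wider than either group, with means of 57.7 ± 1.60 and 36.3 ± 1.30 (SD, n = 3). TCF7L1 fell by 37.1%, a log2 fold change of -0.67 ± 0.07 (SE, limma adjusted p = 0.000878), and was called in all 15 other settings that were run (adjusted p up to 0.0289). It had 1 probe set, so no second measurement of the gene was at hand.

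The other TCF/LEF factors were not called. TCF7L2, which encodes TCF4, the main partner of β-catenin in intestinal epithelium, gave 493, 530.4 and 584 in LV-shNC and 661, 600.2 and 562 in LV-shIL-1β. These values overlapped, at a log2 fold change of 0.18 ± 0.07 (SE, limma adjusted p = 0.184), and all 6 of its probe sets past the filter had a positive sign. LEF1, the factor of hair follicle and lymphocyte precursors, gave 20.9, 18.6 and 20.7 against 19.4, 24.4 and 23.0, near the filter signal and with overlap (0.15 ± 0.11, SE, limma adjusted p = 0.468). Another LEF1 probe set, below the filter and not tested, had means of 11.8 and 16.02 without overlap. TLE1, a co-repressor that binds TCF factors, had means of 768 and 758 (-0.02 ± 0.04), and its 4 tested probe sets were all slightly negative.

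Among the inhibitors, the 2 Dickkopf genes went opposite ways. DKK1, a secreted protein that blocks the co-receptors LRP5 and LRP6 and is itself a target of β-catenin, gave 1419.6, 1404 and 1514 in LV-shNC and 1833, 2059.9 and 1881 in LV-shIL-1β. Every LV-shIL-1β array exceeded every LV-shNC array, with means of 1446 ± 59.6 and 1925 ± 120 (SD, n = 3). DKK1 rose by 33.0%, a log2 fold change of 0.41 ± 0.05 (SE, limma adjusted p = 0.00191), and was called in 14 of 15 other settings. It had 1 probe set. DKK3, a divergent Dickkopf protein that does not act on LRP6 as DKK1 does, gave 1225, 1259.6 and 1216 in LV-shNC and 1028, 1074 and 1054 in LV-shIL-1β. The groups were narrow and apart, with means of 1234 ± 23.0 and 1052 ± 23.0 (SD, n = 3). DKK3 fell by 14.7%, a log2 fold change of -0.23 ± 0.04 (SE, limma adjusted p = 0.00755). All 4 tested DKK3 probe sets were negative and 3 were called, at -0.23, -0.23 and -0.25, with the last at -0.18 (adjusted p = 0.162).

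The remaining inhibitors and genes of receptor turnover were not called. RNF43 and ZNRF3, membrane ubiquitin ligases that remove Frizzled receptors, had means of 73.7 and 73.4 (log2 fold change -0.01 ± 0.07) and of 94.0 and 94.6 (0.01 ± 0.09). SFRP1, a secreted protein that binds Wnt ligands, had means of 19.9 and 18.4, and NKD1, an intracellular antagonist of Dishevelled, of 20.4 and 19.3. Both lay near the filter signal, where overlap was found as well.

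**Figure D3:**
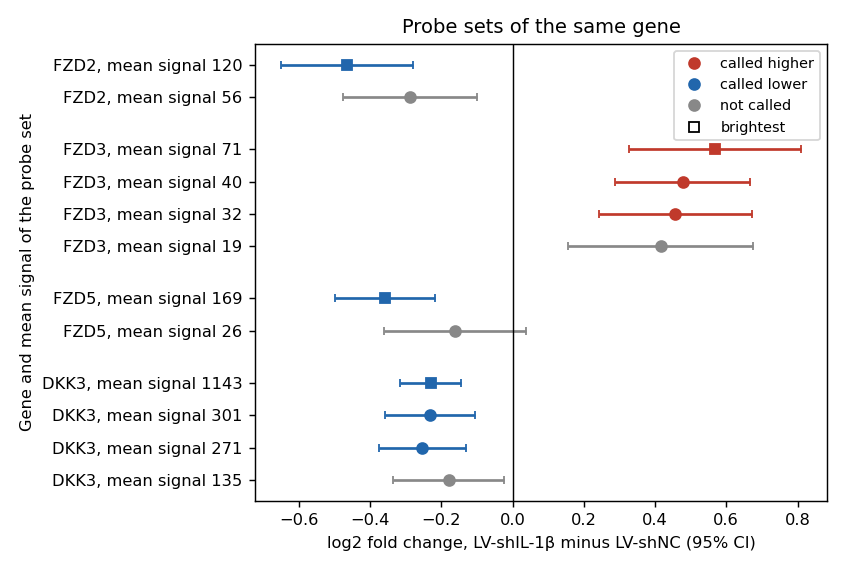
Log2 fold change, LV-shIL-1β minus LV-shNC, with 95% confidence interval, for each tested probe set of the called members that had more than 1 (FZD2, FZD3, FZD5 and DKK3), labelled with its mean signal over the 6 arrays. Squares mark the probe set that stood for the gene; red and blue mark calls and grey no call. Within each gene all probe sets share a sign, and 3 of 4 were called for FZD3 and for DKK3. The FZD3 probe set that was not called passed the filter only through the LV-shIL-1β arrays, so its sign carries no weight.

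Over all members, 93 probe sets carried a member's symbol alone and 61 of them passed the filter, of which 4 were called higher and 7 lower. Of the 15 members with at least 2 tested probe sets, 12 had the same sign on all of them; the exceptions were WNT7B, LRP6 and GSK3B, none of them called. No member was called on another probe set alone. Below the filter, where nothing was tested, some dimmer probe sets pointed against the one that stood for the gene without overlap between groups. Besides those of ROR1 these were 1 of SFRP1 (0.38 against -0.11) and 1 of CTNNB1 (0.21 against -0.09), as log2 differences.

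The upstream sequence of DKK1 and TCF7L1 is shown because DKK1 is a known β-catenin target and these were the members called with the lowest adjusted p in each direction. Each line gives the 250 bases before the annotated transcription start, 5′ to 3′, from RefSeq on GRCh38.p14, at chr10:52314031-52314280 for DKK1 and chr2:85133142-85133391 for TCF7L1, both on the plus strand. Capitals mark the core of a TCF site, searched as CTTTGA or CTTTGT on both strands.
DKK1: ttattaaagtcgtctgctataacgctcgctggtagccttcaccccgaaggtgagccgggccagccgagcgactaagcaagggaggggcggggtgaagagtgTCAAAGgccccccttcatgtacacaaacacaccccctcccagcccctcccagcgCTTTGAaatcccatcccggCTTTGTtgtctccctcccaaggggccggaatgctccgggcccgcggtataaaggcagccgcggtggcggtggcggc
TCF7L1: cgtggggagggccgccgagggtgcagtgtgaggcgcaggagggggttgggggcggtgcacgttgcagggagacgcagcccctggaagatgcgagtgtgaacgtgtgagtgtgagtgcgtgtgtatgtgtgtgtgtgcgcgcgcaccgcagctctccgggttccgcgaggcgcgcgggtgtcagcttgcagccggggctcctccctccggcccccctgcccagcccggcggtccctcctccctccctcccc

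DKK1 held 3 matches, which began 149, 95 and 76 bases before the start, and TCF7L1 held none in this window. A match is a run of letters and was not shown to be a bound site. The core occurred in 22.9% of 27305 promoters of the same length, taking the first listed start of each gene, and 0.59% held 3 or more. Of the members, 23 had an entry in the promoter table, and 3 of them held the core, namely DKK1, FZD1 and RNF43. WNT4 and FZD5, the other called members with an entry, held none. The AP-1 site TGANTCA (N for any base), searched because AP-1 lies downstream of IL-1 signaling, occurred in 6.6% of all promoters and in 0 of the 23 members.

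The neighbouring genes on the chromosome were read beside the called members. Taking the 10 nearest measured genes on each side in RefSeq order, the median log2 fold change of the 20 neighbours lay between -0.06 and 0.03 for the 7 called members. Around TCF7L1, 2 of 20 neighbours were called higher and 4 lower. Around WNT4 and around FZD5, 2 were called lower, and around FZD2 none was called. Around FZD3 and around DKK3, 1 was called higher, and around DKK1, 1 was called higher and 1 lower. Of all genes 8.53% were called, 4.03% higher and 4.5% lower.

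A wider list of 76 Wnt pathway genes, chosen by role, held the other ligands, R-spondins and their LGR receptors, secreted antagonists, casein kinases, TLE co-repressors, β-catenin co-activators and planar polarity genes. Of these, 74 were measured and 45 passed the filter. With 1 probe set per gene, limma called none higher and 1 lower. This was 2.22% of those tested, beside 8.53% of all tested genes. An unadjusted p under 0.05 was found for 16 of the 45, and for 3080 of all 12311. The one called was KREMEN2, a receptor that pairs with DKK1 to remove LRP6 from the surface. It gave 208, 222 and 210.4 in LV-shNC and 183, 167 and 190.1 in LV-shIL-1β, without overlap. The log2 fold change was -0.25 ± 0.06 (SE, limma adjusted p = 0.0496), and the call was lost in 11 of 15 other settings. Its relative KREMEN1 had means of 129 and 110.2 without overlap, at -0.23 ± 0.07 (adjusted p = 0.0795). The median log2 fold change of the 45 was -0.05. TPBG was not called on the probe set that stood for it (0.12 ± 0.04, SE, limma adjusted p = 0.0943). It was called higher when its tested probe sets were averaged (0.42 ± 0.07, SE, limma adjusted p = 0.00542), so the count depends on the probe set used.

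To look at the output of the pathway, 39 genes known as β-catenin and TCF targets in some cell type were read in the same way, with 28 past the filter. DKK1 and SOX9 were called higher and MMP7 lower. SOX9, a transcription factor of progenitor cells, gave 81.7, 87.6 and 81.9 in LV-shNC and 115, 119.6 and 108 in LV-shIL-1β. These groups did not overlap, at a log2 fold change of 0.45 ± 0.07 (SE, limma adjusted p = 0.00447). MMP7, the protease matrilysin, gave 71.8, 62.9 and 69.9 in LV-shNC and 46.0, 46.3 and 47.5 in LV-shIL-1β. It fell by 31.6%, a log2 fold change of -0.55 ± 0.07 (SE, limma adjusted p = 0.00295). The usual targets MYC and CCND1 were not called, with log2 fold changes of 0.07 ± 0.05 and -0.03 ± 0.05. AXIN2, LEF1, NKD1, RNF43 and ZNRF3, which are members and feedback targets of the pathway, were not called, and LGR5 and SP5 did not pass the filter. The median of the 28 was -0.05. The 3 calls were 10.7% of the targets tested, and the 2 among the 22 targets that were not members 9.09%, both near the 8.53% called over all genes.

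**Figure D4:**
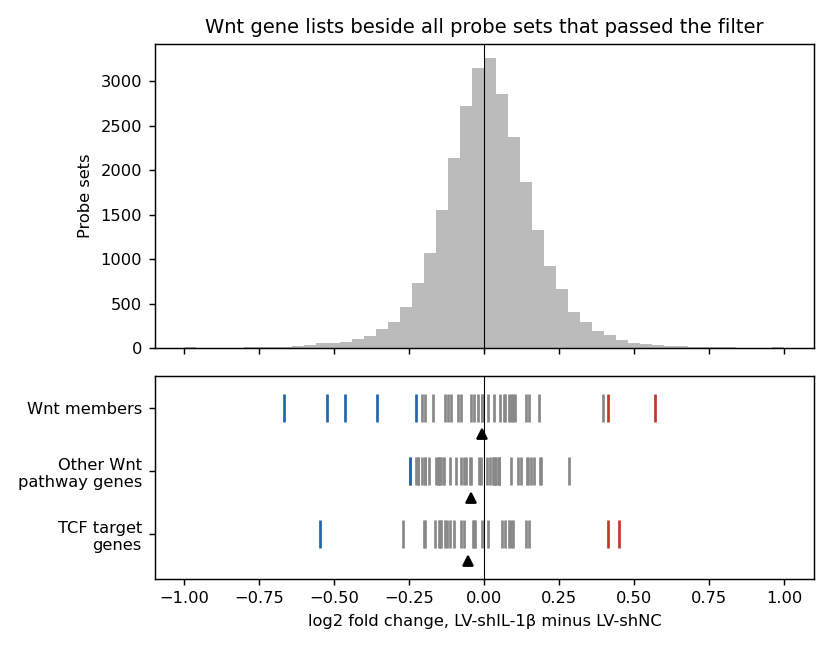
Top, histogram of the log2 fold change, LV-shIL-1β minus LV-shNC, of the 27546 tested probe sets, with values beyond -1 or 1 placed in the end bins; bottom, 1 tick for each tested gene of the Wnt members (33), the other Wnt pathway genes (45) and the TCF target genes (28), with red for called higher, blue for called lower, grey for not called and a triangle at the list's median. The medians sit at -0.01, -0.05 and -0.05, near the centre of the histogram, with called members on both sides of 0.

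The 7 calls differed in how firmly they held when the processing was varied. TCF7L1 was called in 15 of 15 settings and DKK1 in 14, FZD2 and FZD3 in 13 each, FZD5 and DKK3 in 12 each and WNT4 in 5 of 14. No called member changed sign in any of them. FZD3 ranged from 0.43 to 0.64 and FZD2 from -0.52 to -0.38 on the log2 scale over these settings.

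**Figure D5:**
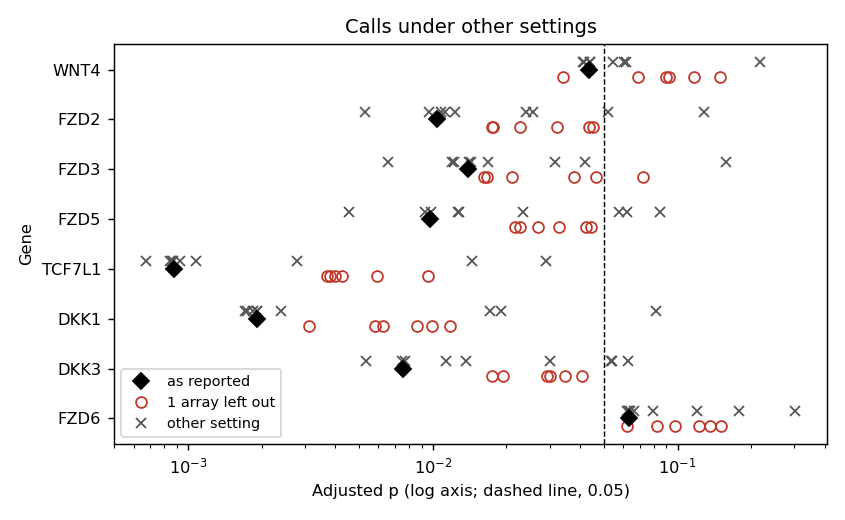
Adjusted p (log axis) of the 7 called members and FZD6 as reported (diamonds), with 1 array left out (open circles) and under the other settings (crosses); the dashed line marks the threshold of 0.05. TCF7L1 stays left of the line throughout, WNT4 lies on both sides of it, and FZD6 stays right of it.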

How the data were processed

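RNA of Cal27 cells with LV-shIL-1β or LV-shNC (3 arrays each) was hybridised to Affymetrix Human Genome U133 Plus 2.0 arrays. The authors deposited linear intensities for 54675 probe sets per array. The submitters' processing notes name MAS5; its version and settings, and any step across arrays, were not given in the sources used here, and such a step could narrow the spread between arrays. No detection calls were used.

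Groups came from the sample labels. Deposited intensities were put on the log2 scale with no pseudocount and no further normalization. The 62 array controls were left out, and 27546 probe sets with at least 3 of 6 arrays above 18.6 were kept. LV-shIL-1β was set against LV-shNC with a two-sided test in limma 3.58.1, run under R 4.3.3 with lmFit and trended eBayes. Benjamini-Hochberg adjustment ran over all kept probe sets, with a threshold of 0.05. The fit was tested on data simulated from its own model with independent arrays, which cannot show whether that model holds here. The number of arrays limits the precision. No 2 arrays had more than 1.17% equal values. Gene names came from the platform annotation (41097 probe sets with 1 symbol, 1801 with several, 11777 with none), and Entrez identifiers were looked up in a RefSeq table of GRCh38.p14, which changed 0 symbols. The files name no genome build.

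The members and lists were chosen with earlier results of these data known, so no test was run over a list. Values on every array were given for each called member, for the 6 largest changes among the other tested members, and for CTNNB1, AXIN2 and LEF1, and outside this rule for WNT5A, chosen after its values were seen; in the wider lists each called gene was named, and the further genes named there were chosen after their values were seen. Other settings were no filter, a stricter filter (all 6 arrays), a pseudocount of 16, quantile normalization, median centring, eBayes without trend, Student's t-test, the replicate number as a block, 1 mean of all tested probe sets of a gene, and leaving out each array in turn. The study's methods name Student's t-test for its data in general, not for the arrays. Its Benjamini-Hochberg adjustment was added here.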

Additional observations from a re-analysis of the deposited data

How the results depend on the processing

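Under Student's t-test with adjustment, 267 probe sets were called in place of 1944, with 0 members higher and 1 lower (TCF7L1), 0 other pathway genes lower, and 0 TCF targets higher and 0 lower. At an unadjusted p under 0.05 the same t-test gave 2826 of the 27546 tested probe sets higher and 2399 lower. Of the 33 tested members, with 1 probe set each, 3 were higher and 7 lower. The share over all genes at 1 probe set each was not counted, so these member counts are not read further. Without the trend in eBayes, 3 members were called lower. KREMEN2 was lost with no filter, with median centring, without the trend and under the t-test, which left 0 other pathway genes lower in each. With all tested probe sets of a gene averaged, 1 other pathway gene, TPBG, was called higher (0.42, against 0.12 on the probe set that stood for it). Arrays with the same number did not deviate together (correlations of -0.39, -0.11 and -0.21). Whether equal numbers mark shared cultures or days was not stated, and these values cannot decide it. With the replicate number as a block, 568 probe sets, 1 member lower (TCF7L1), 2 members higher and 0 other pathway genes lower were called. Because each block holds 1 array of each group, the block cannot move a fold change.

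Leaving out 1 array gave 694 to 1807 called probe sets (1221, 914 and 1086 without LV-shNC replicates 1, 2 and 3; 1807, 694 and 880 without LV-shIL-1β replicates 1, 2 and 3), 1 to 2 members higher (1 without LV-shIL-1β replicate 2), 4 to 5 members lower and 0 to 1 other pathway genes lower. The 1 there, without LV-shIL-1β replicate 1, was KREMEN1. Fewer arrays enter these fits.

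In the settings that could move a fold change, the sign turned in no called member, but it turned in members near 0. With median centring DVL3 became 0.0065 and RNF43 0.0084, with quantile normalization ZNRF3 became -0.0191, and with its probe sets averaged WNT7B became -0.0029. When 1 array was left out, AXIN2 ran from -0.188 to 0.142, DVL3 from -0.0242 to 0.0200, FZD1 from -0.0058 to 0.0636, LRP5 from -0.107 to 0.0607, RNF43 from -0.0412 to 0.0216, TLE1 from -0.0422 to 0.0020 and ZNRF3 from -0.0328 to 0.0888. The cause of these changes was not tested. IL1B lay between -0.74 and -0.69 when 1 array was left out, and was called in every setting that was run.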
